A study of Homo sapiens with 9 samples.

Results

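The genes described here are 10 components of the Notch pathway in human spinal cord organoids (SCOs), found by gene symbol in the deposited count tables. They are the ligands DLL1, DLL3, JAG1 and JAG2, the receptors NOTCH1, NOTCH2 and NOTCH3, and the HES factors HES1, HES5 and HES6. All 10 were present, out of 31589 genes listed in any of the 3 tables, and all 10 passed the filter on low counts in every comparison.

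SCOs were grown from WTC, a human induced pluripotent stem cell line whose genotype the sample labels give as WT. The line carried a SOX10-driven reporter cassette and was used as 3 clones, C2, C36 and C40, of which C36 and C40 also had indels on the other SOX10 allele. The vehicle SCOs received FGF alone. The VPA SCOs received FGF together with valproic acid (VPA, an inhibitor of histone deacetylases). The VPA+Rapamycin SCOs received Rapamycin (an inhibitor of mTOR) in addition to VPA, and the study does not say that FGF was withdrawn from them. There were 3 libraries per condition and 9 in all. The labels state 96 h of exposure and the text of the study 72 h. For VPA the study states both 2 mM and 1 mM, and for Rapamycin 200 nM. Each library was made from 5 to 7 pooled whole SCOs, and the labels do not tie a library number to a clone, so all p-values measure the spread between libraries of sublines of a single line.

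Notch is a receptor for signals between touching cells. A ligand of the Delta or Jagged family on one cell pulls on a receptor of its neighbour, the receptor is cut by an ADAM protease and then by gamma-secretase, and its freed intracellular domain enters the nucleus, where it joins the DNA-binding protein RBPJ and a Mastermind coactivator. In the neural tube the best known direct targets are HES1 and HES5, repressors of proneural genes that hold cells in the progenitor state, while cells that escape the signal raise proneural factors, Delta ligands and HES6 and become neurons.

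The core bases that RBPJ recognises, TGGGAA, were searched for on both strands of the reference promoters (RefSeq, GRCh38.p14, 250 bases before to 50 bases after each start site). The stretches that held them in the members are shown because HES1 and HES5 are the members known as direct targets of the receptor. The HES1 stretch is chr3:194136059-194136088 on the plus strand, which is positions -89 to -60 from the start site. The distal HES5 stretch is chr1:2530470-2530499 and the proximal one chr1:2530326-2530355, both read on the minus strand, from -236 to -207 and from -92 to -63. Capitals mark TGGGAA or its reverse complement TTCCCA.
HES1: tactgTGGGAAagaaagttTGGGAAgtttc
HES5 distal: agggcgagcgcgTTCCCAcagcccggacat
HES5 proximal: ggccgcggagtgTGGGAAcggccgcggcgc
The promoters of 8 members were in the RefSeq table, and HES1 and HES5 were the 2 of these 8 with a match, each with 2 matches. Of 43 promoters of other Notch pathway genes, 11 held a match, and those of HEYL and HEY2 also held 2 each. Of all 35116 promoters, 24.0% held at least 1 match and 3.80% held 2 or more. A match of letters is a description and not a site shown to be bound, and DLL1 and DLL3 were not in the table.

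Sequencing depth was even, with 15290299 to 17417338 counted reads per library, so that the floor of 3 counts lay at 0.170 to 0.198 CPM. Levels are given as CPM (reads of a gene per 1000000 counted reads), scaled with TMM factors over the 9 libraries. The vehicle libraries varied most, with replicates 1 and 3 farthest apart (chi-square per gene 39.1) and replicate 2 between them (13.5 from replicate 1 and 17.9 from replicate 3). VPA replicates differed by 4.75 to 7.56 and VPA+Rapamycin replicates by 6.55 to 14.4. Members' results against vehicle are therefore also given without vehicle replicate 1 or 3 where the call changed. Among the defining markers, the summed level of neural progenitor genes (SOX1, SOX2, SOX3, PAX6, NES, MSI1 and FABP7) was 2200 to 2700 CPM in vehicle, 2470 to 2570 CPM in VPA and 2330 to 2540 CPM in VPA+Rapamycin, so that the labelled neural tissue was present in every library.

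All members were detected in all 9 libraries, with the lowest value at 148 counts for HES1 in VPA+Rapamycin replicate 1. To compare genes with each other, CPM was divided by the length of each gene in kilobases, counted over all its annotated exonic bases. The transcripts in use can be shorter than this, so the order of genes and the class shares below depend on this length. In vehicle the order of these per-kilobase levels was HES5 (244 ± 3.14, SD, n = 3), HES6 (163 ± 5.01), DLL1 (99.2 ± 8.41), DLL3 (59.9 ± 9.0), NOTCH1 (52.2 ± 2.61), JAG1 (45.6 ± 3.38), NOTCH3 (37.0 ± 3.05), NOTCH2 (8.67 ± 0.158), HES1 (7.70 ± 0.647) and JAG2 (4.41 ± 1.09). The libraries of DLL3 and NOTCH1 overlapped, as did those of NOTCH1 and JAG1, so the order of these neighbours was not separated by their spread. HES5 and HES6 led the order in all 3 conditions, and HES1 stayed below 11 CPM per kilobase in its group means. In VPA+Rapamycin, HES1 took the last place at 4.86 CPM per kilobase, beside JAG2 at 5.96, and the libraries of both overlapped.

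**Figure D1:**
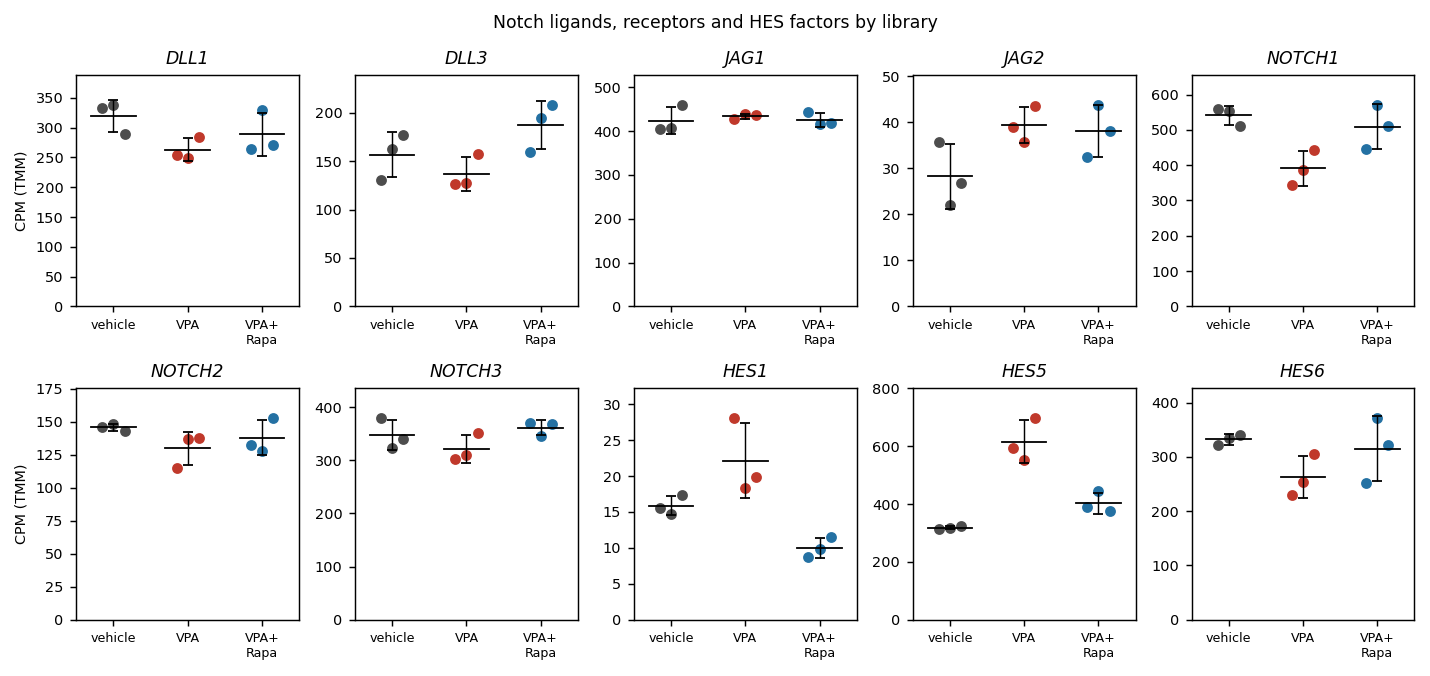
Level of each of the 10 genes in every library, in CPM (TMM-scaled; y axis from 0), for vehicle (grey), VPA (red) and VPA+Rapamycin (blue). Points are libraries, horizontal lines group means and bars the SD (n = 3). HES5 stood at 315 to 323 CPM in vehicle and 554 to 697 CPM in VPA, and HES1 was lowest in all 3 VPA+Rapamycin libraries.

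VPA was compared with vehicle to ask how the anti-seizure drug changed these genes. HES5 rose 1.93-fold, whereas the receptor NOTCH1 fell to 0.723 of its vehicle level and HES6 fell as well. With 17360 genes tested by edgeR, 32.1% of all genes were called at an adjusted p of at most 0.05, 16.4% as higher and 15.7% as lower. Among the members 1 was called higher and 2 lower, which is 3 of 10 and a share near that of all genes. In 6 of 10 members the libraries of the conditions did not overlap, against 47.5% of all genes tested. The median log2 fold change was -0.14 over the members and -0.00298 over all genes tested. Without vehicle replicate 1, 5 of 10 members and 6710 genes in all were called, and without vehicle replicate 3, 6 of 10 members and 6476 genes, against 5568 genes with all libraries.

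VPA+Rapamycin was compared with VPA to ask what Rapamycin changed in SCOs that also received VPA. HES1 and HES5 were lower with Rapamycin, at 0.454 and 0.656 of their VPA levels, and DLL3 and NOTCH1 were higher by 1.37-fold and 1.30-fold. Of all 17317 genes tested, 6.74% were called, 3.01% as higher and 3.73% as lower, whereas 2 members were called higher and 2 lower. Libraries did not overlap in 4 of 10 members and in 25.4% of all genes tested. The members' median log2 fold change was 0.11, against 0.00391 over all genes tested. With all 9 libraries in a single fit only HES1 and HES5 remained called among the members, and 113 genes in all in place of 1168.

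VPA+Rapamycin against vehicle shows what still differed from vehicle SCOs. HES5 was still 1.27-fold higher than in vehicle and HES1 was lower, at 0.633 of its vehicle level. These were the 2 members called, 1 in each direction, while of all 17383 genes tested 19.0% were called, 9.81% as higher and 9.22% as lower. Libraries did not overlap in 2 of 10 members, against 38.5% of all genes tested, and the median log2 fold change was -0.03 over the members and -0.000873 over all genes. The 3 comparisons share libraries with each other, so their values are not independent. In whole organoids, fewer cells of a type and less RNA per cell cannot be told apart, which holds for every value below.

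**Figure D2:**
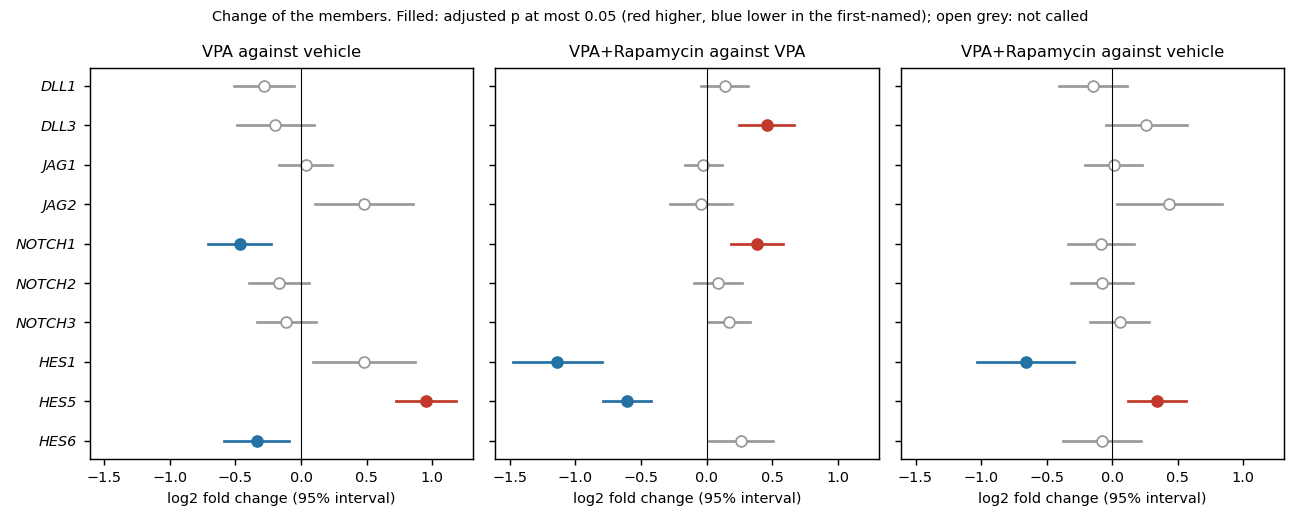
Log2 fold change of each gene (x axis, point) with its 95% confidence interval (line) from edgeR in VPA against vehicle, VPA+Rapamycin against VPA and VPA+Rapamycin against vehicle. Filled points passed an adjusted p of 0.05 (red higher, blue lower), which held for 3, 4 and 2 of the 10 genes, and open grey points did not pass.

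Of the ligands, DLL1 is a Delta ligand that activates receptors on the neighbouring cell and is made by cells on their way to becoming neurons. Its level was 332.9, 338.5 and 288.9 CPM in the vehicle libraries, 254.8, 249.1 and 285.2 CPM in the VPA libraries and 264.8, 329.6 and 271.7 CPM in the VPA+Rapamycin libraries. All VPA libraries lay below all vehicle libraries, although vehicle replicate 3 and VPA replicate 3 were nearly equal, and the VPA+Rapamycin libraries overlapped both. The log2 fold change in VPA against vehicle was -0.28 (SE 0.104, 95% CI -0.509 to -0.0541), which did not pass the test (edgeR, adjusted p = 0.0581). Without vehicle replicate 3 it was -0.35 and passed (edgeR, adjusted p = 0.00611). DLL1 differed from VPA by 0.14 in VPA+Rapamycin (SE 0.0867, edgeR, adjusted p = 0.388) and from vehicle by -0.15 (SE 0.118, adjusted p = 0.42). DLL1 (ENSG00000198719) lies on chr6:170282206-170306565 (GRCh38, minus strand), where it overlaps FAM120B on the other strand. FAM120B had a mean of 1180 counts against 4790 for DLL1, shared 0 exonic bases with it in GENCODE release 29, and had a log2 fold change of -0.05 in VPA against vehicle (adjusted p = 0.724).

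DLL3, a divergent Delta protein that stays mostly inside the cell and dampens signalling, was the ligand called with Rapamycin. The gene (ENSG00000090932) lies on chr19:39498895-39508481 (GRCh38, plus strand). Its vehicle libraries held 130.9, 162.4 and 177.0 CPM, its VPA libraries 125.9, 127.0 and 156.9 CPM and its VPA+Rapamycin libraries 159.8, 194.1 and 208.2 CPM. The VPA and vehicle libraries overlapped, while all VPA+Rapamycin libraries lay above all VPA libraries, with the closest pair at 159.8 and 156.9 CPM. The log2 fold change was 0.46 in VPA+Rapamycin against VPA (SE 0.0993, edgeR, adjusted p = 0.00896). It kept its direction but lost the call with all 9 libraries in a single fit (adjusted p = 0.145), without VPA replicate 1 (0.0573), without VPA replicate 2 (0.0737) and without VPA+Rapamycin replicate 3 (0.0619). The log2 fold change was -0.20 in VPA against vehicle (SE 0.134, edgeR, adjusted p = 0.287), where it passed without vehicle replicate 1 (-0.31, adjusted p = 0.0436). Against vehicle, DLL3 in VPA+Rapamycin stood at 0.26 (SE 0.139, adjusted p = 0.216).

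JAG1, a Jagged ligand of the neural tube and of mesenchyme and vessels, passed no test and no alternative called it. It lies on chr20:10637684-10673999 (GRCh38, minus strand, ENSG00000101384) and measured 404.5, 407.2 and 460.3 CPM in vehicle, 428.0, 438.5 and 436.5 CPM in VPA and 444.5, 416.6 and 418.0 CPM in VPA+Rapamycin. The libraries of all 3 conditions overlapped. The 95% CI of its log2 fold change ran from -0.167 to 0.240 in VPA against vehicle and from -0.167 to 0.119 in VPA+Rapamycin against VPA, with adjusted p-values of 0.796 and 0.881 by edgeR. Against vehicle its log2 fold change in VPA+Rapamycin was 0.01 (SE 0.0992, edgeR, adjusted p = 0.955).

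JAG2, the other Jagged ligand, had the lowest per-kilobase level of the ligands and lies on chr14:105140981-105168824 (GRCh38, minus strand, ENSG00000184916). The vehicle libraries held 35.75, 21.99 and 26.88 CPM, the VPA libraries 38.87, 35.70 and 43.46 CPM and the VPA+Rapamycin libraries 32.46, 43.76 and 38.10 CPM. Vehicle replicate 1 reached the lowest VPA library, and the other vehicle libraries lay below every treated library. JAG2 had a log2 fold change of 0.48 in VPA against vehicle (SE 0.171, 95% CI 0.107 to 0.855), at the edge of the threshold (edgeR, adjusted p = 0.0503). Of 12 alternative settings 8 called it, among them DESeq2 (adjusted p = 0.0349) and the fits without vehicle replicate 1 (0.00212) and without vehicle replicate 3 (0.0396), with a range from 0.00212 to 0.195. Its log2 fold change was -0.04 in VPA+Rapamycin against VPA (SE 0.113, adjusted p = 0.868) and 0.44 in VPA+Rapamycin against vehicle (SE 0.183, adjusted p = 0.12), where it passed without vehicle replicate 1 (0.64, adjusted p = 0.0137).

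Of the receptors, NOTCH1 is the main receptor of neural progenitors and lies on chr9:136494433-136545786 (GRCh38, minus strand, ENSG00000148400). Its level was 558.9, 554.7 and 510.1 CPM in the vehicle libraries, 345.0, 385.2 and 442.8 CPM in the VPA libraries and 445.0, 571.2 and 511.4 CPM in the VPA+Rapamycin libraries. Every VPA library lay below every vehicle library, and VPA+Rapamycin replicate 1 exceeded VPA replicate 3 by only 445.0 to 442.8 CPM. In VPA against vehicle the log2 fold change was -0.47 (SE 0.109, edgeR, adjusted p = 0.00766), and without VPA replicate 1 it was -0.38 and no longer passed (adjusted p = 0.0551). In VPA+Rapamycin against VPA it was 0.38 (SE 0.0957, edgeR, adjusted p = 0.0209). That call was lost under 5 of 12 alternatives, namely the single fit of all 9 libraries (adjusted p = 0.145) and the fits without VPA replicate 1 (0.124), VPA replicate 2 (0.101), VPA+Rapamycin replicate 2 (0.0574) and VPA+Rapamycin replicate 3 (0.0703). Against vehicle, NOTCH1 in VPA+Rapamycin had a log2 fold change of -0.09 (SE 0.113, adjusted p = 0.638).

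NOTCH2 and NOTCH3, the other receptors of the neural tube, of which NOTCH3 is also known from vascular mural cells, passed no test. NOTCH2 (ENSG00000134250) lies on chr1:119911553-120069626 and NOTCH3 (ENSG00000074181) on chr19:15159038-15200981, both on the minus strand (GRCh38). NOTCH2 measured 146.0, 148.2 and 142.9 CPM in vehicle, 115.2, 136.5 and 137.6 CPM in VPA and 132.4, 128.1 and 152.7 CPM in VPA+Rapamycin. NOTCH3 measured 379.5, 323.4 and 340.9 CPM in vehicle, 301.8, 310.9 and 351.4 CPM in VPA and 369.8, 345.1 and 369.1 CPM in VPA+Rapamycin. The VPA libraries of NOTCH2 lay below the vehicle libraries without overlap, whereas those of NOTCH3 overlapped. In VPA against vehicle the log2 fold changes were -0.17 for NOTCH2 (SE 0.104, edgeR, adjusted p = 0.248) and -0.11 for NOTCH3 (SE 0.103, adjusted p = 0.433). With Rapamycin against VPA they were 0.09 (SE 0.0868, adjusted p = 0.607) and 0.17 (SE 0.0753, adjusted p = 0.19), and no alternative called either gene in any comparison. NOTCH2NLA, a partial copy of NOTCH2 whose reads could be split between both, held 17 to 45 counts per library against 1932 to 2458 for NOTCH2. Of 5 such copies listed, it was the 1 present in the tables. These counts do not show how many reads NOTCH2 lost to its copies.

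The HES factors moved in opposite directions in VPA against vehicle, HES5 up and HES6 down. HES5, a repressor of proneural genes and a direct Notch target, lies on chr1:2528745-2530245 (GRCh38, minus strand, ENSG00000197921) and its promoter stretches are printed above. Its level was 315.2, 317.0 and 323.1 CPM in the vehicle libraries, 594.0, 553.7 and 697.3 CPM in the VPA libraries and 388.5, 444.3 and 375.9 CPM in the VPA+Rapamycin libraries. The 3 conditions did not overlap, with VPA highest, VPA+Rapamycin between and vehicle lowest. The log2 fold change was 0.95 in VPA against vehicle (SE 0.105, edgeR, adjusted p = 0.000114) and -0.61 in VPA+Rapamycin against VPA (SE 0.0884, adjusted p = 0.000444), and both calls held under all 12 alternatives. In VPA+Rapamycin against vehicle it was 0.34 (SE 0.102, edgeR, adjusted p = 0.0386). This last call was lost without vehicle replicate 2 (adjusted p = 0.125) and without VPA+Rapamycin replicate 1 (0.099), 2 (0.161) or 3 (0.0794). The gene AL139246.5 on the opposite strand overlaps HES5 with a mean of 462 counts against 7400, or 6.24%, and shares 0 exonic bases with it in GENCODE release 29. Its log2 fold change in VPA against vehicle was 0.54 (SE 0.163, edgeR, adjusted p = 0.0256), and it is named after its values were seen.

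HES1, the broader of the repressors, which acts in many tissues besides neural progenitors, lies on chr3:194136145-194138732 (GRCh38, plus strand, ENSG00000114315). Its levels were 15.56, 14.72 and 17.33 CPM in vehicle, 28.08, 18.34 and 19.94 CPM in VPA and 8.797, 9.777 and 11.50 CPM in VPA+Rapamycin. No condition overlapped another, and VPA replicate 1 stood well above the other VPA libraries. HES1 had a log2 fold change of 0.48 in VPA against vehicle (SE 0.178, 95% CI 0.0897 to 0.871), which did not pass (edgeR, adjusted p = 0.0595) but was called under 4 of 12 alternatives, among them the fit without vehicle replicate 3 (adjusted p = 0.0227). In VPA+Rapamycin against VPA it fell by 1.14 on the log2 scale (SE 0.163, edgeR, adjusted p = 0.000389), a call that held under all 12 alternatives. In VPA+Rapamycin against vehicle the log2 fold change was -0.66 (SE 0.169, edgeR, adjusted p = 0.0214), and the call was lost without vehicle replicate 2 (0.0527), VPA+Rapamycin replicate 1 (0.101) or VPA+Rapamycin replicate 2 (0.083).

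HES6, which is known to oppose HES1 and to promote neuronal differentiation, lies on chr2:238238267-238240662 (GRCh38, minus strand, ENSG00000144485). The vehicle libraries held 321.3, 335.5 and 341.0 CPM, the VPA libraries 230.4, 253.0 and 305.5 CPM and the VPA+Rapamycin libraries 251.6, 371.6 and 322.5 CPM. The VPA libraries lay below the vehicle libraries, and the VPA+Rapamycin libraries spanned both. HES6 fell by 0.34 on the log2 scale in VPA against vehicle (SE 0.114, edgeR, adjusted p = 0.0415). That call was lost under 5 of 12 alternatives, which were upper-quartile normalization (adjusted p = 0.0588), all 9 libraries in a single fit (0.0604) and the fits without vehicle replicate 2 (0.117), VPA replicate 1 (0.205) or VPA replicate 2 (0.164). The log2 fold change was 0.26 in VPA+Rapamycin against VPA (SE 0.116, edgeR, adjusted p = 0.19), which passed without VPA+Rapamycin replicate 1 (0.40, adjusted p = 0.0195) and without the filter on low counts (0.0183). Against vehicle it was -0.07 in VPA+Rapamycin (SE 0.135, adjusted p = 0.736).

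The makeup within each class was taken from the per-kilobase levels, as a description without a test. A share moves with the levels of the other genes in its class as well as with the gene itself. Of the summed level of HES1, HES5 and HES6, HES5 made up 58.8% ± 0.493 (SD, n = 3) in vehicle, 77.1% ± 1.05 under VPA and 66.0% ± 3.37 under VPA+Rapamycin. The share of HES6 was 39.4% ± 0.493, 21.1% ± 1.51 and 32.9% ± 3.35 in the same order. The 3 conditions did not overlap in either share, and HES1 contributed at most 2.34% in any library. Among the receptors NOTCH1 made up 52.3% to 55.3% in vehicle, 46.0% to 48.3% in VPA and 47.6% to 55.4% in VPA+Rapamycin, so that VPA was separated from vehicle while VPA+Rapamycin overlapped both. NOTCH3 made up 35.6% to 39.2%, 42.2% to 44.5% and 37.0% to 43.7%. Among the ligands DLL1 was the largest part, at 47.5% ± 4.44 in vehicle, 43.7% ± 0.404 under VPA and 42.0% ± 2.80 under VPA+Rapamycin. JAG2 made up 1.60% to 2.76% in vehicle and 3.13% to 3.39% in VPA.

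**Figure D3:**
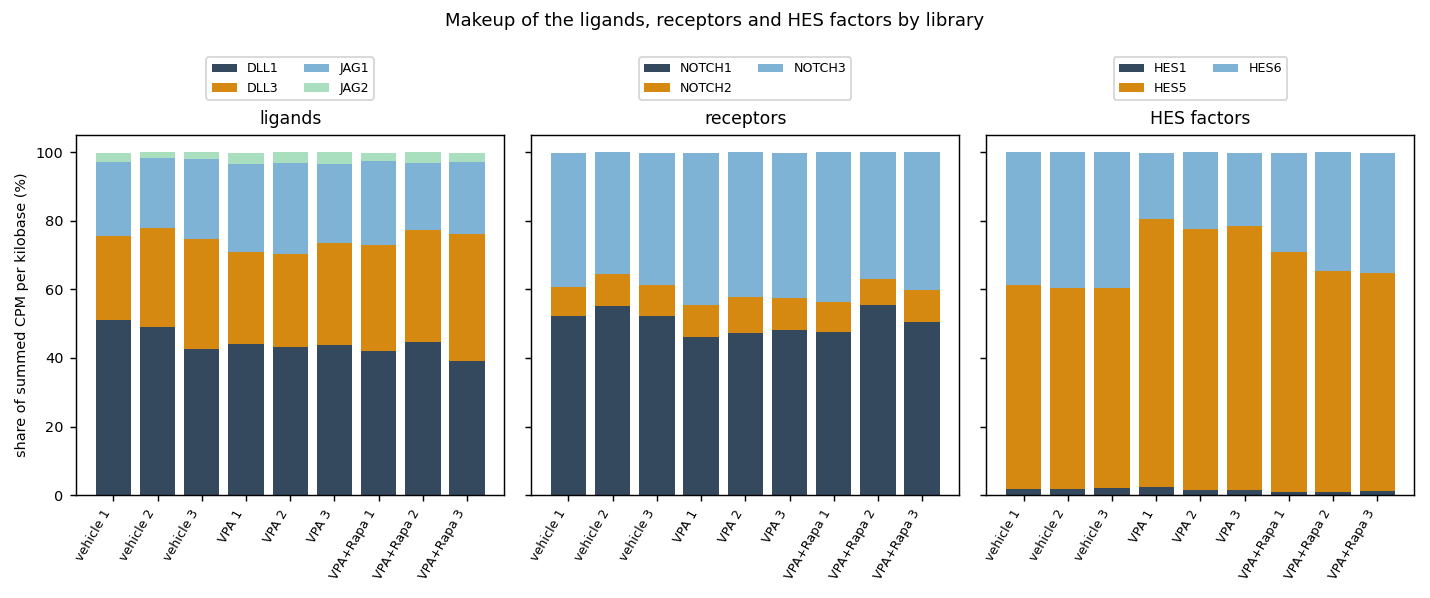
Share of each gene in the summed CPM per kilobase of its class (y axis, %; each stacked bar sums to 100) in each of the 9 libraries, for ligands, receptors and HES factors. The HES5 share was 58.5% to 59.4% in vehicle, 76.1% to 78.2% in VPA and 63.7% to 69.9% in VPA+Rapamycin.

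The other genes of the pathway were taken from a list of 52 symbols, of which 48 were in the tables and all 48 were tested. In VPA against vehicle 8 were called higher, 11 lower and 29 not (19 calls, with 24 without vehicle replicate 1 and 23 without vehicle replicate 3), which is 39.6% of the list called against 32.1% of all genes. Their median log2 fold change was -0.145, against -0.00298 over all genes tested. In VPA+Rapamycin against VPA 0 were higher and 2 lower by edgeR, or 4.17% against 6.74% of all genes, and DESeq2 called 2. An unadjusted edgeR p under 0.05 was reached by 17 of the 48, 13 higher and 4 lower. Over all 17317 genes it was reached by 3714, 1802 higher and 1912 lower. The median in that comparison was 0.07. In VPA+Rapamycin against vehicle 5 were higher and 9 lower, or 29.2% against 19.0% of all genes.

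Among further ligands and receptors, DLL4, the Delta ligand known from vessels and from spinal interneuron progenitors, showed the strongest fall. It held 370, 332 and 201 counts in vehicle, 46, 57 and 49 under VPA and 60, 95 and 72 under VPA+Rapamycin, and the vehicle libraries lay far above all treated ones. Its log2 fold change was -2.64 in VPA against vehicle (SE 0.251, edgeR, adjusted p = 4.79e-05) and -2.05 in VPA+Rapamycin against vehicle (adjusted p = 0.000733). DLK2, a non-canonical ligand, rose from 38 to 55 counts per vehicle library to 112 to 139 per VPA library (log2 fold change 1.37, SE 0.235, edgeR, adjusted p = 0.00145). The remaining 3 of 5 genes in this role were not called in VPA against vehicle, where 32.1% of all genes were. NOTCH2NLA, the NOTCH2-like copy present in the tables, was not called either.

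In the machinery that acts on ligands and receptors, 5 of 18 genes were called in VPA against vehicle, where 32.1% of all genes were. Of 4 genes for endocytosis of ligands, the ubiquitin ligase NEURL1 was higher in VPA (log2 fold change 0.86, edgeR, adjusted p = 0.00536) and NEURL1B lower (-0.36, adjusted p = 0.0448), the second with a call that 9 of 12 alternatives did not share. Of 5 glycosylation genes only the O-fucosyltransferase POFUT1 was called (0.41, edgeR, adjusted p = 0.0454), and 5 alternatives lost it, among them the fit without vehicle replicate 3 (0.0577). Of 9 cleavage genes the gamma-secretase subunits PSEN2 (0.77, edgeR, adjusted p = 0.00639) and APH1A (0.48, adjusted p = 0.0194) were higher, and 0 were lower. The APH1A call was lost without vehicle replicate 2, VPA replicate 2 or VPA replicate 3 (adjusted p up to 0.0864).

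In the nuclear complex 4 of 8 genes were called in VPA against vehicle, all lower, where 15.7% of all genes were lower. The count was 3 by DESeq2 and 2 when replicate number entered as a blocking factor. RBPJ, the DNA-binding partner of every Notch receptor, measured 260.3, 281.8 and 331.8 CPM in vehicle, 190.3, 181.3 and 168.4 CPM in VPA and 192.3, 192.7 and 221.4 CPM in VPA+Rapamycin. All treated libraries lay below all vehicle libraries. The log2 fold change of RBPJ was -0.69 in VPA against vehicle (SE 0.112, edgeR, adjusted p = 0.00106), a call that held under all 12 alternatives. It was -0.52 in VPA+Rapamycin against vehicle (edgeR, adjusted p = 0.0131). That second call was lost without VPA+Rapamycin replicate 1 (edgeR, adjusted p = 0.0724) or VPA+Rapamycin replicate 2 (0.0649). The acetyltransferases CREBBP (-0.55, edgeR, adjusted p = 0.00194) and EP300 (-0.35, adjusted p = 0.0239) and the coactivator MAML3 (-0.30, adjusted p = 0.0489) were the others, and MAML3 is named after its values were seen. The EP300 call was lost under 4 of 12 alternatives (adjusted p 0.0531 to 0.132). Of 9 genes grouped as attenuators, regulators of the pathway whose effect on the receptor was not tested here, 4 were lower. These were the Deltex gene DTX3 (-0.80, edgeR, adjusted p = 0.0018), NUMBL (-0.61, adjusted p = 0.00649), the ubiquitin ligase ITCH (-0.50, adjusted p = 0.0105) and the ubiquitin ligase subunit FBXW7 (-0.475, adjusted p = 0.0113), the last named after its values were seen. The ITCH call was lost without VPA replicate 3 (edgeR, adjusted p = 0.0642).

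Among the other HES and HEY factors, 3 of 7 were higher and 1 lower in VPA against vehicle. Of all genes, 16.4% were higher and 15.7% lower in that comparison. HES7, a factor of the somite clock, held 28, 24 and 32 counts in vehicle, 206, 149 and 141 under VPA and 143, 170 and 132 under VPA+Rapamycin. Its treated libraries lay above all vehicle libraries and overlapped each other, with a log2 fold change of 2.48 in VPA against vehicle (SE 0.258, edgeR, adjusted p = 8.35e-05) and -0.14 in VPA+Rapamycin against VPA (SE 0.184, adjusted p = 0.714). HEYL, a target known from mural and neural cells, rose with VPA (1.69, edgeR, adjusted p = 0.000175) and fell by 0.57 on the log2 scale with Rapamycin against VPA (adjusted p = 0.00954). HES3 rose by 0.89 in VPA against vehicle (edgeR, adjusted p = 0.0431), with overlapping libraries and a call lost without vehicle replicate 2, VPA replicate 1 or VPA replicate 2 (adjusted p up to 0.143), and fell by 1.29 on the log2 scale with Rapamycin (adjusted p = 0.00157). HEYL and HES3 were the 2 genes of the list called in VPA+Rapamycin against VPA, both lower, and both calls were lost with all 9 libraries in a single fit (HEYL under 4 of 12 alternatives). HES2 was lower in VPA (-1.78, edgeR, adjusted p = 0.00763) and is named after its values were seen.

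**Figure D4:**
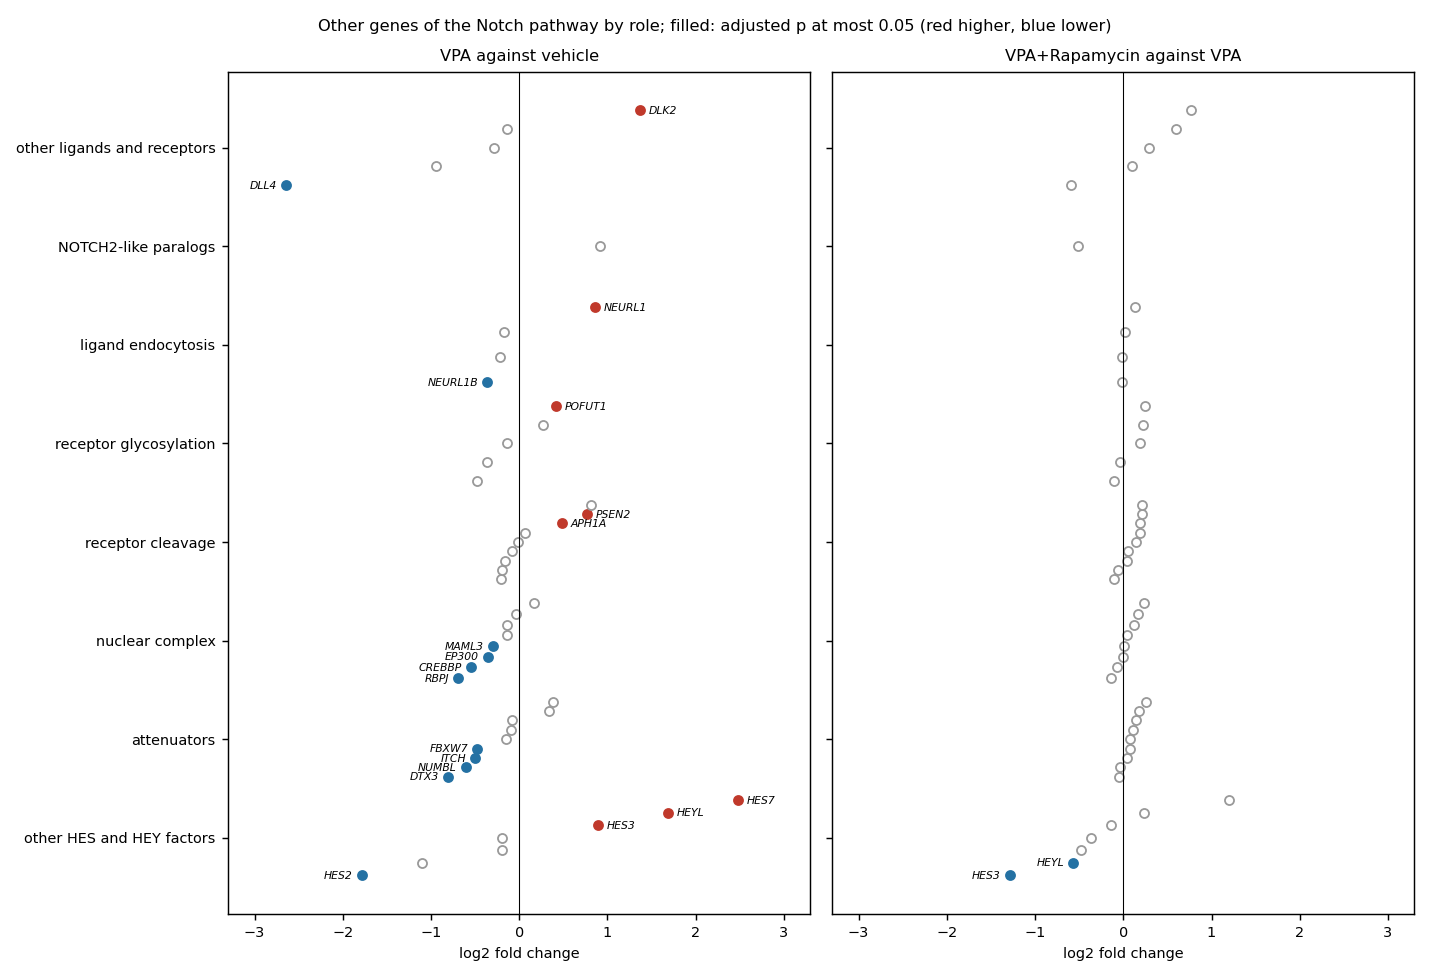
Log2 fold change (x axis, edgeR) of the 48 other Notch pathway genes by role, in VPA against vehicle and VPA+Rapamycin against VPA. Filled points passed an adjusted p of 0.05 (red higher, blue lower; 8 and 11 on the left, 0 and 2 on the right), and all 8 calls in the nuclear complex and the attenuators were lower in VPA.

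Markers of cell types also differed between the conditions. Of 7 neuron genes 6 fell in VPA against vehicle (5 without vehicle replicate 3), where 15.7% of all genes were lower. Their summed level was 1380 to 2300 CPM in vehicle, 1080 to 1170 CPM in VPA and 1200 to 1240 CPM in VPA+Rapamycin, so that every vehicle library lay above every treated one. With Rapamycin against VPA, 3 of the 7 rose, where 3.01% of all genes were higher. Of 7 progenitor genes MSI1 alone was called in VPA against vehicle, as lower, and 3 were called without vehicle replicate 3. In VPA+Rapamycin against VPA FABP7 alone was called, as lower (log2 fold change -0.55, edgeR, adjusted p = 0.000292), where 3.73% of all genes were lower. In VPA+Rapamycin against vehicle FABP7 (-0.77, edgeR, adjusted p = 0.0102) and MSI1 (-0.59, adjusted p = 0.0197) were lower, where 9.22% of all genes were lower. The part of cell makeup in the members' values was not tested.

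Mesenchymal genes summed to 150 to 318 CPM in vehicle, 576 to 734 under VPA and 257 to 382 under VPA+Rapamycin, and mural genes, a source of NOTCH3 and HEYL in other tissues, to 16.4 to 25.8, 26.3 to 29.9 and 18.2 to 23.9 CPM. The mesenchymal sums were carried by COL1A1 (mean 125 CPM in vehicle and 270 CPM in VPA) and COL1A2 (73.4 and 319 CPM). These were the 2 of 8 tested mesenchymal genes called in VPA against vehicle, where 32.1% of all genes were called. That count was 1 by DESeq2 and 5 without vehicle replicate 3, a fit that called 6476 of 17880 genes in all. In VPA+Rapamycin against VPA 6 of 8 were lower (4 by DESeq2), where 3.73% of all genes were lower. Of 5 mural genes CNN1 was the 1 called in VPA against vehicle (4.88 and 14.8 CPM), and TAGLN and RGS5 had log2 fold changes of -0.66 and -0.79 that did not pass. Neural crest genes summed to 29.2 to 76.9 CPM in vehicle, the highest in replicate 3, 10.5 to 14.8 under VPA and 15.8 to 17.8 under VPA+Rapamycin. In VPA against vehicle 3 of 5 tested, SOX10, FOXD3 and TFAP2A, were lower (2 by DESeq2), where 15.7% of all genes were lower. SNAI2 (log2 fold change 0.52) and PAX3 (-1.26) were not called. In VPA+Rapamycin against VPA 2 of 5, SOX10 and FOXD3, were higher, where 3.01% of all genes were higher. Neuromesodermal and presomitic genes, the tissue known for HES7, reached only 5.97 to 7.92, 10.5 to 12.2 and 8.92 to 11.5 CPM, with TCF15 the 1 of 5 tested that was called in VPA against vehicle (2.97 and 6.89 CPM), and endothelial genes 6.16 to 10.7, 7.88 to 12.0 and 7.80 to 8.68 CPM. No listed marker that was in the tables was at 0 over a whole condition. The part of these cells in the members' values was not tested.

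**Figure D5:**
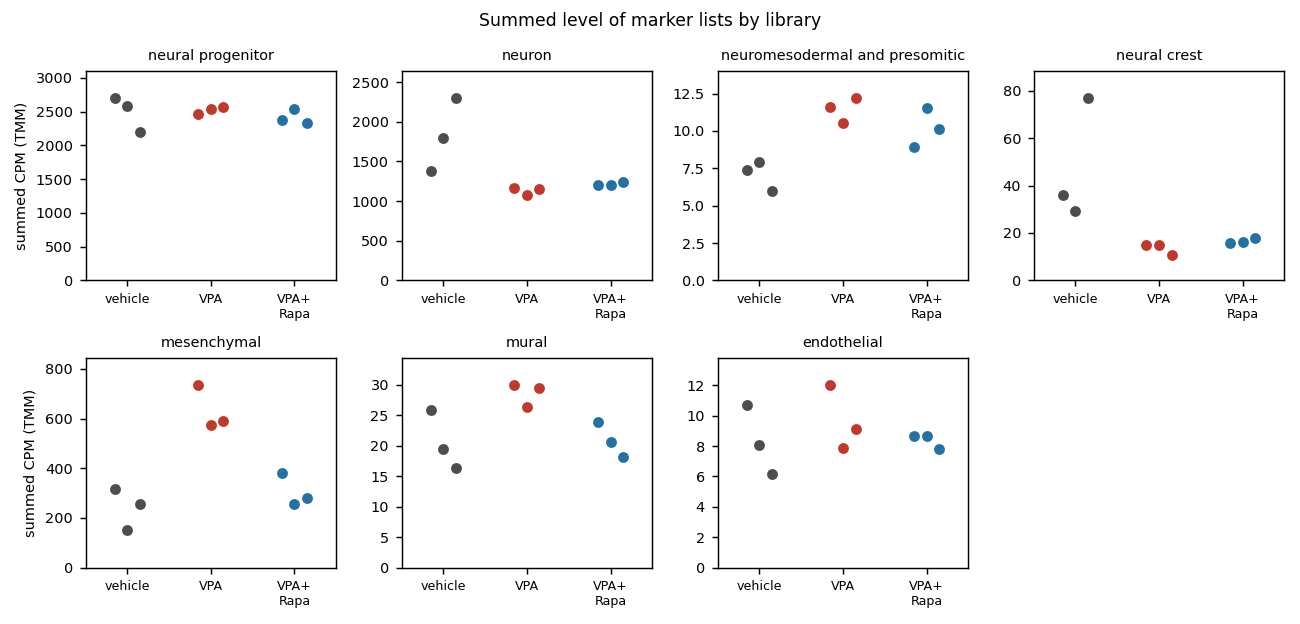
Summed level of each of 7 marker lists (y axis, CPM, from 0) in every library of vehicle (grey), VPA (red) and VPA+Rapamycin (blue). Neuron sums were 1080 to 1170 CPM in VPA, below all vehicle libraries at 1380 to 2300 CPM, while progenitor sums overlapped between the conditions.

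For the members called in any comparison, the genes with the most similar course over the 9 libraries were sought among 16733 genes, by the root mean square difference of centred log2 levels. NOTCH1 was closest to WBP2 (0.0719) and LRRC27 (0.0723), and HES6 to ABAT (0.0941) and to NOTCH1 itself (0.0955). DLL3 was closest to RTN1 (0.0939) and ZNF436 (0.0959). The nearest genes of HES5 were GAS6 (0.116) and SH3KBP1 (0.117), and those of HES1 were TCIM (0.204) and BTG2 (0.209). For comparison, the members' own root mean square deviation from their mean was 0.241 for NOTCH1, 0.223 for HES6, 0.248 for DLL3, 0.403 for HES5 and 0.497 for HES1. These are descriptions over libraries that share conditions and depth.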

How the data were processed

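Poly-A RNA of whole SCOs was sequenced, and the submitters' processing notes name HISAT2 2.0.5 and featureCounts 1.5.0-p3. The authors deposited raw, unscaled counts for each gene, in 1 table for each pair of conditions (30034, 29566 and 30047 genes, 26871 in all 3), with GRCh38 coordinates. The strand setting of the counting is not given in the sources used here. Coordinates and gene lengths of all 10 members equal those of GENCODE release 29. Columns of FPKM (18) and of size-factor-scaled values (18) and the authors' own DESeq2 comparisons (log2 fold changes and p-values) were not used.

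In R 4.3.3, edgeR 4.0.16 was run on each table with TMM, filterByExpr and the quasi-likelihood F test, adjusted by Benjamini-Hochberg over all genes tested, at 0.05. Standard errors came from the estimate and its F statistic. The alternatives were DESeq2 1.42.0, upper-quartile normalization, no filter, a minimum of 10 counts per library, a joint fit of the 9 libraries, replicate number as blocking factor and leaving out each library. Scripts were tested on simulated data.

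Members and lists were chosen with earlier results of these data known. All members are named, as are at most 3 called genes per role (smallest adjusted p), an overlapping gene above 10% of a member's count and the 2 genes most like each called member. One marker list is not reported here.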

Additional observations from a re-analysis of the deposited data

How the results depend on the processing

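No call of the 10 members or of the 16 other pathway genes named by the rule turned its direction under any alternative run. The genes named after their values were seen, the overlapping genes and the markers were not run gene by gene. Without the filter on low counts, 5 members were called in VPA against vehicle in place of 3, with 6101 of 30034 genes in all. In VPA+Rapamycin against VPA that setting called 4 other pathway genes in place of 2, with 1596 of 29566 genes in all. With all 9 libraries in a single fit, VPA+Rapamycin against VPA called 2 members in place of 4, 0 other pathway genes in place of 2 and 113 genes in all in place of 1168, and the cause was not tested. Leaving out each library in turn gave 1 to 6 members, 12 to 24 other pathway genes and 3390 to 6710 genes in all for VPA against vehicle (3, 19 and 5568 with all libraries). The extremes for members were 1 without VPA replicate 1 and 6 without vehicle replicate 3, with 5 without vehicle replicate 1, and the 12 pathway genes came without VPA replicate 2. For VPA+Rapamycin against VPA it gave 2 to 5 members, 1 to 6 other pathway genes and 472 to 1203 genes in all, with 2 members without VPA replicate 1, VPA replicate 2 or VPA+Rapamycin replicate 3. For VPA+Rapamycin against vehicle (2, 14 and 3307 with all libraries) it gave 0 to 3 members, 5 to 21 other pathway genes and 1295 to 4314 genes in all, with 0 members without vehicle replicate 2, VPA+Rapamycin replicate 1 or VPA+Rapamycin replicate 2. Fits with fewer libraries have fewer degrees of freedom.

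With the replicate number as a block, 4, 4 and 2 members, 15, 2 and 19 other pathway genes and 4965, 1244 and 4040 genes in all were called in the 3 comparisons. Deviations of same-numbered libraries correlated at -0.097 to 0.0402, -0.0382 to 0.0682 and 0.0674 to 0.209. Those of differently numbered libraries correlated at -0.102 to 0.065, -0.0929 to 0.105 and -0.216 to 0.125, so the ranges overlapped. The count columns carry the same prefixes in all 3 conditions, so equal numbers may stand for matched sublines. No label ties them to a clone, and these correlations cannot decide it. The main fits therefore left the numbers out, and the block gives the other case. The floor of 3 counts covers counting error only, and no depth limit applies to the members, all at 148 counts or more.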
